A study of Homo sapiens with 39 samples.

Results

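The 45 genes described here encode core subunits of the spliceosome. They were chosen by name, with no measured value in the rule, and all 45 were found among the 21530 gene symbols of the polysome table and the 26334 symbols of the RNA immunoprecipitation (RIP-seq) tables. By role they are 3 U1 proteins, 7 proteins of the Sm ring, 11 U2 proteins, 4 proteins of the U4/U6 and tri-snRNP, 6 U5 proteins, 6 proteins of the LSm ring, 4 proteins of the Prp19 complex and its partners, and 4 DEAH-box helicases.

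The spliceosome removes introns from pre-mRNA. The U1 particle pairs with the 5' splice site, the U2 particle with the branch point, and the U4/U6.U5 tri-snRNP then joins, after which helicases remodel the assembly and the Prp19 complex holds the catalytic form together. The Sm and LSm rings wrap the small nuclear RNAs. U2AF1, the protein studied here, is the small subunit of the factor that reads the AG at the end of an intron and so helps to seat U2, and S34F is a recurrent cancer mutation in its RNA-binding zinc finger.

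The series holds 39 samples. Human bronchial epithelial cells (HBEC), grown in serum-free keratinocyte medium with bovine pituitary extract and EGF, came as a line with wild-type U2AF1 (WT), a line with U2AF1 S34F, and a line labelled Frame Shift (FS), whose altered allele the labels do not specify. Each of the 3 lines gave 1 polysome gradient with 8 libraries (monosomes, fractions of 2 to 7 ribosomes, and a pooled fraction of 8-10 ribosomes) and 3 RIP-seq libraries: RNA precipitated with U2AF1 (IP), RNA from a control precipitation (IgG) and RNA of the cytosol (Cytosol). PAR-CLIP crosslinks a protein to the RNA it touches and leaves T-to-C conversions at the contacts. It was carried out in Flp-In-293, a derivative of the embryonic kidney line HEK293, that expressed FLAG-HA tagged U2AF1, either WT or S34F. Its 3 cluster lists cover WT protein on chromatin, WT protein in cytoplasm and S34F protein in cytoplasm, and each list was made from 2 replicates together. The tagged protein is expressed beside whatever U2AF1 the host cells make, and the labels do not say whether an HBEC line is 1 clone.

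Polysome libraries held 2440145 to 13367574 counts and RIP libraries 2582141 to 29769968. The HBEC label was checked against markers. The 10 markers of basal airway epithelium summed to 21744 to 30901 CPM (counts scaled to one total in every library) in Cytosol and 7050 to 15846 CPM in the polysome libraries, whereas the 3 ciliated-cell markers reached at most 33.3 CPM and the 3 secretory markers at most 40.8 CPM. Fibroblast and endothelial markers reached at most 18.0 and 36.4 CPM, and the 4 blood markers summed to 52.8 to 68.4 CPM in Cytosol, all of it CD68, and 51.0 to 181 CPM in the polysome libraries, where CD68 had 47.6 to 168 CPM. Of the epithelial markers EPCAM (0 to 1.41 CPM) and KRT14 (0.0158 to 29.3 CPM) were low in Cytosol. The part of other cells in the results was not tested. All 45 genes passed the filter on low counts in both fits, and 4 of them (SNRPE, SNRPF, LSM5 and LSM6) were listed at 0 in at least 1 RIP library. Levels per kilobase of transcript in Cytosol ran from 327 ± 50.03 CPM per kb (SD, n = 3 lines) for SNRPD2, an Sm ring subunit, to 1.15 ± 0.42 for LSM5. These are bulk libraries, in which fewer cells with an mRNA and less of it per cell cannot be told apart.

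U2AF1 contacts on the spliceosome's own transcripts were read first, from the PAR-CLIP lists. The sequences below are from the 6 genes with the most conversion events in a chromatin cluster in an intron or at a splice junction, 1 cluster per gene. Clusters annotated in part as UTR were left out, among them the leading one of SF3B3 (607 reads, 412 events). The sequences are shown as parts of the most strongly converted clusters of these genes near or within introns. Each runs 5' to 3' on the gene's strand, as the lists give it, with the coordinates of the cluster lists (the build is not given in the sources used here). Capitals mark the trinucleotide ending in AG that follows a pyrimidine tract, or, for SNRPB, which has no such site in its cluster, the longest run of C and T. Longer clusters were cut to 30 bases. The cut was made around the first such site, or, for SNRPB, around the position that the lists name as the cluster's mode. That mode position lies outside the printed window for SF3B1 (198284921) and PRPF8 (1582646).
SF3B1, intron, chr2:198284941-198284970, minus strand: aagttttctttcCAGgtagaaggacaagaa
SNRNP200, 3' splice junction, chr2:96966779-96966808, minus strand: atccttcattgtttCAGatgacaacattga
SF3B3, 3' splice junction, chr16:70588332-70588361, plus strand: cttcttttctttttCAGatgagtttgatgc
PRPF8, 3' splice junction, chr17:1582691-1582720, minus strand: gggcttatttttcCAGgtatcgggagcatt
DHX38, 3' splice junction, chr16:72131559-72131588, plus strand: cgtgtgactcttcaTAGatgagcgggatag
SNRPB, intron, chr20:2444054-2444083, minus strand: CTTacattcaggtctagaagatgggagttg
The SF3B1 cluster held 596 reads and 571 conversion events, the SNRNP200 cluster 385 and 385, and the SF3B3 cluster 358 and 327. The PRPF8 cluster held 396 reads and 310 events, the DHX38 cluster 287 and 284, and the SNRPB cluster 363 and 242. Of the 6 windows 5 contain such a tract site, and 4 of those 5 have CAG. The windows were placed on the site wherever the cluster held one, so this count follows from their placement and describes the whole clusters.

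In the cytoplasm lists coding exons held more clusters of these genes than any other class. The following windows are from the coding clusters with the most conversion events, 3 of the WT list and then 2 of the S34F list, and capitals mark the longest run of C and T. They are shown as the most strongly converted coding contacts.
SNRPA, WT cytoplasm, chr19:41268925-41268954, plus strand: aggggccatgCCCCCgcagcagcttatgcc
SNRPB, WT cytoplasm, chr20:2443301-2443330, minus strand: atgggcatgCCCCCTCCgggaatgcggcct
SF3B3, WT cytoplasm, chr16:70605631-70605657, plus strand: aaaagaacgTCTCTgaagaactggacc
SNRPB, S34F cytoplasm, chr20:2443376-2443405, minus strand: atgatgggcccaCCTCCTggtatgagacct
SF3A2, S34F cytoplasm, chr19:2245486-2245515, plus strand: agCCCgcgcctgagaaggtcaaggtggagg
The 3 WT clusters held 96, 91 and 45 reads with 59, 55 and 28 conversion events. The S34F clusters held 28 reads with 23 events on SNRPB and 56 reads with 21 events on SF3A2. By the definition of a tract site given with the counts of such sites, the SNRPA window also holds one, with CAG, and the other 4 windows hold none. Longer clusters were cut here around the mode position and not around a tract site. Both SNRPB clusters hold a site with AAG outside the printed window. The chromatin and cytoplasm windows can therefore not be compared in their number of sites. The lists held 4723555 reads in clusters for WT chromatin, 526075 for WT cytoplasm and 658110 for S34F cytoplasm, so read numbers of different lists are not on one scale.

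The chromatin list held 708 clusters on 38 of the 45 genes, which is 0.762% of its 92895 clusters (exact 95% binomial interval 0.707 to 0.820%). The cytoplasm lists held 181 clusters on 37 genes for WT (0.680% of 26613, 0.585 to 0.786%) and 182 clusters on 34 genes for S34F (0.631% of 28828, 0.543 to 0.730%). These intervals cover counting error only, and no test between lists was possible because the replicates are pooled. By reads the share was 0.903% on chromatin, 0.680% in WT cytoplasm and 0.421% in S34F cytoplasm. The 3 shares of clusters have overlapping intervals, while the order of the read shares places the S34F list lowest. A total of 31 genes carried clusters in all 3 lists. No cluster of any list carried the name of SF3B4, PRPF3, PRPF31, LSM2 or DHX16, and 1 gene (SNRPD2) was named on chromatin alone. Whether the lists name some of these genes by an older symbol was not settled, so a missing name is not read as a missing contact.

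Clusters were concentrated on the large U5 and U2 proteins. PRPF8, the scaffold at the catalytic centre, carried 81 chromatin clusters, 14 in WT cytoplasm and 8 in S34F cytoplasm. SNRNP200, the helicase that unwinds U4 from U6, carried 79, 12 and 7 in the same order. SF3B3 carried 70, 19 and 26 and SF3B1, the U2 subunit that clamps the branch point, 61, 16 and 14. By reads SF3B1 led every other of the 45 genes in the chromatin list with 7181, and it had 425 reads in WT cytoplasm and 210 in S34F cytoplasm. The U5 group had 264, 50 and 27 clusters in all, and the U2 group 213, 58 and 58. Among the Sm proteins, SNRPD1 carried 5, 4 and 8 clusters, of which 1, 4 and 6 lay in its 3' UTR. Across the 45 genes the number of clusters went with transcript length at a Spearman rho of 0.622 on chromatin, 0.464 in WT cytoplasm and 0.464 in S34F cytoplasm, and with HBEC Cytosol CPM at 0.377, 0.387 and 0.271. These correlations are descriptions across genes that share the same libraries, and genes are not independent replicates.

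Within the genes, coding sequence was the class with the most clusters in each list. Of the WT cytoplasm clusters on these genes, 93 of 181 were annotated as coding (51.4%, 43.9 to 58.9%), against 32.5% of all clusters in the list. In S34F cytoplasm 74 of 182 were coding (40.7%, 33.5 to 48.2%), against 26.5% of all, and on chromatin 277 of 708 (39.1%, 35.5 to 42.8%), against 32.6%. Clusters outside the classes of protein-coding genes made up 9.23%, 13.5% and 12.9% of all clusters on chromatin, in WT cytoplasm and in S34F cytoplasm, but 0.565%, 0.552% and 2.20% of those on the spliceosome genes. Without them the coding share was 51.7% for the spliceosome genes (44.1 to 59.2%) against 37.6% of all in WT cytoplasm, and 41.6% (34.2 to 49.2%) against 30.5% in S34F cytoplasm. On chromatin it was 39.3% (35.7 to 43.1%) against 35.9%, a value inside the interval. The share at 3' splice junctions was 19.2% on chromatin (136 clusters, 16.4 to 22.3%), against 17.7% of all. It was 4.97% in WT cytoplasm (9 clusters, 2.299 to 9.23%) and 4.95% in S34F cytoplasm (9 clusters, 2.29 to 9.18%), against 2.77% and 3.36% of all. The intron share was 26.8% on chromatin against 29.8% of all, 17.7% in WT cytoplasm (12.4 to 24.03%) against 28.9%, and 28.02% in S34F cytoplasm (21.6 to 35.1%) against 34.1%. The WT cytoplasm interval lies below the value of its list. DHX15, a helicase that disassembles the spliceosome, had 5 of its 13 WT cytoplasm clusters in introns and 13 of its 19 S34F cytoplasm clusters there. SF3A2 went the other way, with 5 of 5 and 2 of 6. Both are single examples, and no difference between the lists was tested.

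A tract site was defined as CAG, TAG or AAG with at least 7 of the 10 bases before it being C or T, searched on the strand of the cluster and, for comparison, on its reverse complement. Among chromatin clusters at 3' splice junctions of the spliceosome genes, 70 of 136 held one (51.5%, 42.8 to 60.1%), with CAG in 37, TAG in 21 and AAG in 12. The share was 52.8% over all 16418 chromatin clusters at 3' splice junctions, which lies within that interval. The reverse complement held a match in 37.5% of the 136 clusters and in 31.0% of all. In introns of S34F cytoplasm 20 of 51 clusters held a site (39.2%, 25.8 to 53.9%; 14 CAG, 5 TAG, 1 AAG), against 34.4% of all intron clusters in the list. In WT cytoplasm 8 of 32 did (25%, 11.5 to 43.4%; 4 CAG, 1 TAG, 3 AAG), against 26.6%. At 3' splice junctions it was 5 of 9 in S34F cytoplasm (55.6%), against 53.5% of all, and 1 of 9 in WT cytoplasm (11.1%, 0.281 to 48.2%), against 51.8%, which lies above the interval. A match is a description of letters, and longer clusters have more room for one.

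Cytoplasmic clusters of the spliceosome genes often fell on the positions of chromatin clusters. At an overlap of at least 1 base, 63 of 181 WT cytoplasm clusters met a chromatin cluster (34.8%, 27.9 to 42.2%), against 18.2% over the list. For S34F cytoplasm it was 72 of 182 (39.6%, 32.4 to 47.1%), against 21.3%. Both intervals exclude the value of their list, but they treat clusters of 1 gene as independent. The chromatin list held 708 clusters on 38 of these genes, against 92895 under 9481 gene names in all. The chromatin clusters of these genes were also longer, at a median of 33 against 28 bases. Clusters outside the classes of protein-coding genes were kept in the list values. The part of cluster number and length in the overlap was not tested. Between the cytoplasm lists the overlap was 25 of 181 WT clusters (13.8%, 9.14 to 19.7%), against 10.2%, and 25 of 182 S34F clusters (13.7%, 9.09 to 19.6%), against 9.41%. Only 12 of 708 chromatin clusters, on 8 genes, met clusters of both cytoplasm lists (1.69%, 0.879 to 2.94%), against 1.12% of all chromatin clusters.

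The 12 shared sites included several in SF3B1. The intronic SF3B1 cluster printed in part first above (chr2:198284921-198284970) had 596 reads on chromatin, 84 in WT cytoplasm and 42 in S34F cytoplasm, with 571, 68 and 27 conversion events. A neighbouring cluster annotated as a stop codon (chr2:198283557-198283687) had 786, 53 and 13 reads. The window of 1712 bases from chr2:198283557 to 198285268, chosen after its values were seen, held 31.8% of all SF3B1 reads on chromatin, 61.2% in WT cytoplasm and 35.7% in S34F cytoplasm. On the other genes, a PRPF8 site at a 5' splice junction (chr17:1577677-1577746) had 42, 17 and 58 reads. A site in the 3' UTR of SNRPA, the U1 protein that binds a stem-loop of U1 RNA, had 7 reads on chromatin, 151 in WT cytoplasm and 29 in S34F cytoplasm (chr19:41271161-41271181). The WT cytoplasm reads of this site belong to a cluster of 146 bases, which overlaps the chromatin cluster of 21 bases, so they cover a longer stretch.

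**Figure D1:**
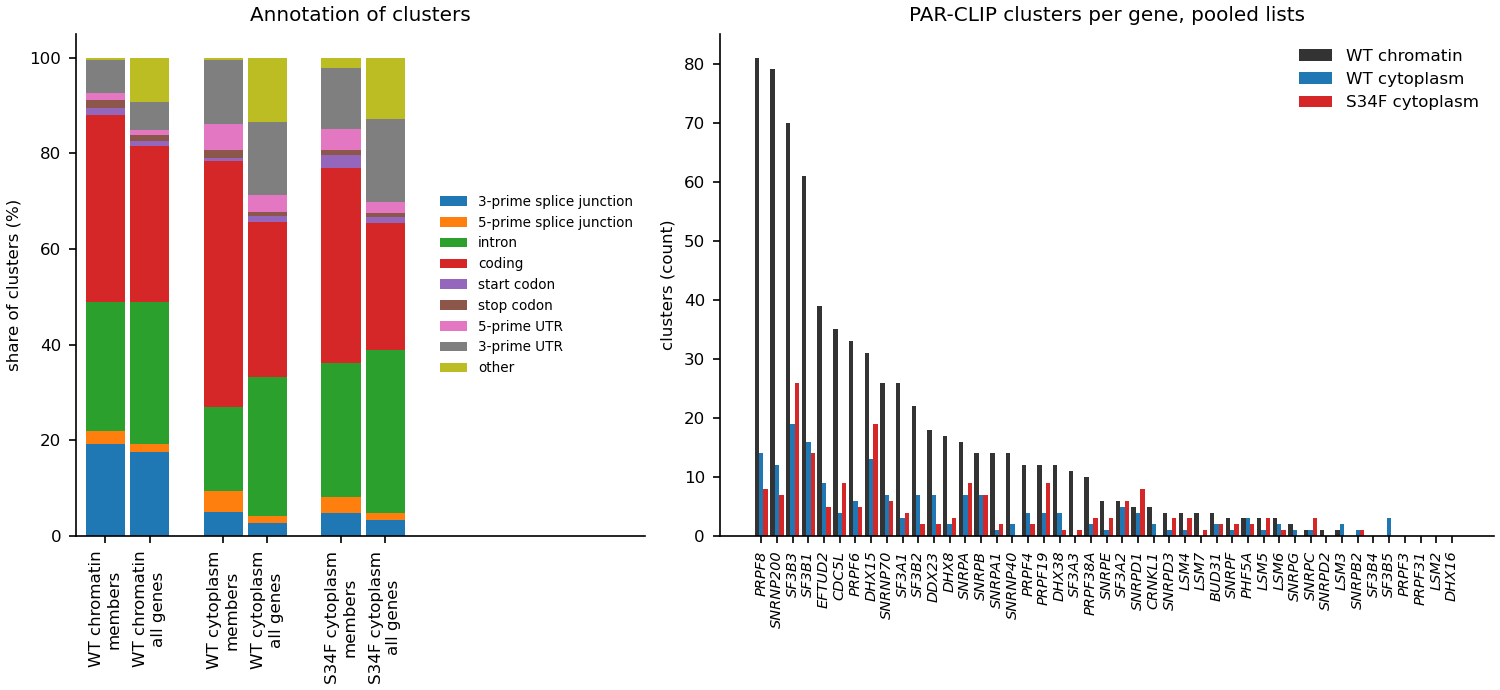
PAR-CLIP clusters of the core spliceosome genes. Left, share of clusters (%) in each annotation class, for the 45 genes (members) and for all clusters of each pooled list. Right, number of clusters per gene in WT chromatin, WT cytoplasm and S34F cytoplasm, with PRPF8 (81 on chromatin) first. The 5 genes drawn at 0 had no cluster under the symbol used here.

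RIP-seq asked which cytosolic mRNAs came down with U2AF1 in HBEC. None of the 45 spliceosome mRNAs passed the threshold (edgeR's quasi-likelihood test, Benjamini-Hochberg adjusted p under 0.05) in any contrast. This held for IP against IgG, in which 1.34% of 11612 genes passed, IP against Cytosol, in which 0.534% passed, and IgG against Cytosol, in which 0.68% passed. At an unadjusted p under 0.05 the numbers were 5, 7 and 3 of 45, beside 1497, 851 and 849 of the 11612 genes. DESeq2 also called 0 of the 45 in each contrast. The spread between libraries was wide after line and library kind were fitted, with a biological coefficient of variation of 69.8%. The median log2 fold change of the 45 mRNAs was 0.03 for IP against IgG, -0.24 for IP against Cytosol and -0.11 for IgG against Cytosol, beside 0.03, -0.07 and -0.11 over all genes tested. IP lay below Cytosol in 3 of 3 lines for 18 mRNAs and above it in 3 of 3 for 6. This tally was not made over all genes, so it is not read as depletion. The fold change for IP against Cytosol was above 0 for 13 of the 45 and for 5428 of the 11612 genes.

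Of the 6 mRNAs of U5 proteins 1 had a fold change above 0 for IP against Cytosol, and 0 passed the test. PRPF8, SNRNP200 and PRPF6 were among those with negative fold changes. In the order WT, S34F and FS, PRPF8 had 486, 432 and 464 CPM in IP, 415, 811 and 688 CPM in IgG, and 772, 623 and 741 CPM in Cytosol. Every IP library was thus below every Cytosol library, whereas IP and IgG crossed, with WT IP above WT IgG. The log2 fold change was -0.66 ± 0.21 (SE) for IP against Cytosol (adjusted p = 0.4) and -0.62 ± 0.22 for IP against IgG (adjusted p = 0.22). SNRNP200 had 195, 185 and 177 CPM in IP, 238, 297 and 206 CPM in IgG and 287, 274 and 288 CPM in Cytosol. For this mRNA IP was the lowest library kind in every line, without overlap, at -0.64 ± 0.22 against Cytosol (adjusted p = 0.478). PRPF6, which bridges U5 and U4/U6, had 127, 160.2 and 74.4 CPM in IP, 230.4, 193 and 121 CPM in IgG and 201, 191 and 219 CPM in Cytosol, a log2 fold change of -0.86 ± 0.30 for IP against Cytosol (adjusted p = 0.463). EFTUD2, the GTPase of U5, with 39 chromatin clusters, had 129, 66.2 and 90.2 CPM in IP, 153, 92.5 and 75.5 CPM in IgG and 99.8, 75.3 and 106 CPM in Cytosol. Here WT IP lay above WT Cytosol, and the fold change was near 0 (-0.06 ± 0.31, adjusted p = 0.987). SNRNP40, also a U5 mRNA, had 53.4, 77.04 and 60.4 CPM in IP and 51.6, 52.2 and 32.99 CPM in Cytosol. It thus went the other way, with IP above Cytosol in every line, whereas its IP and IgG crossed.

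Members of other groups also varied. SNRNP70, the U1 protein that SR proteins contact, had 60.4, 42.2 and 79.2 CPM in IP, 100.0, 71.2 and 76.9 CPM in IgG and 90.4, 90.8 and 140.2 CPM in Cytosol, with IP below Cytosol in each line but ranges of IP and IgG that overlapped. SF3B1 had 60.4, 16.2 and 51.8 CPM in IP, 128, 39.0 and 27.6 CPM in IgG and 36.0, 37.1 and 39.2 CPM in Cytosol. Its precipitates varied several-fold between lines while its Cytosol values were close together. SNRPF, an Sm ring subunit, had 3.86, 3.49 and 6.85 CPM in IP and was at 0, 0.218 and 0 CPM in IgG, so no fold is given for it (adjusted p = 0.299). A count of 0 allows 0.101 to 1.16 CPM in these libraries.

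**Figure D2:**
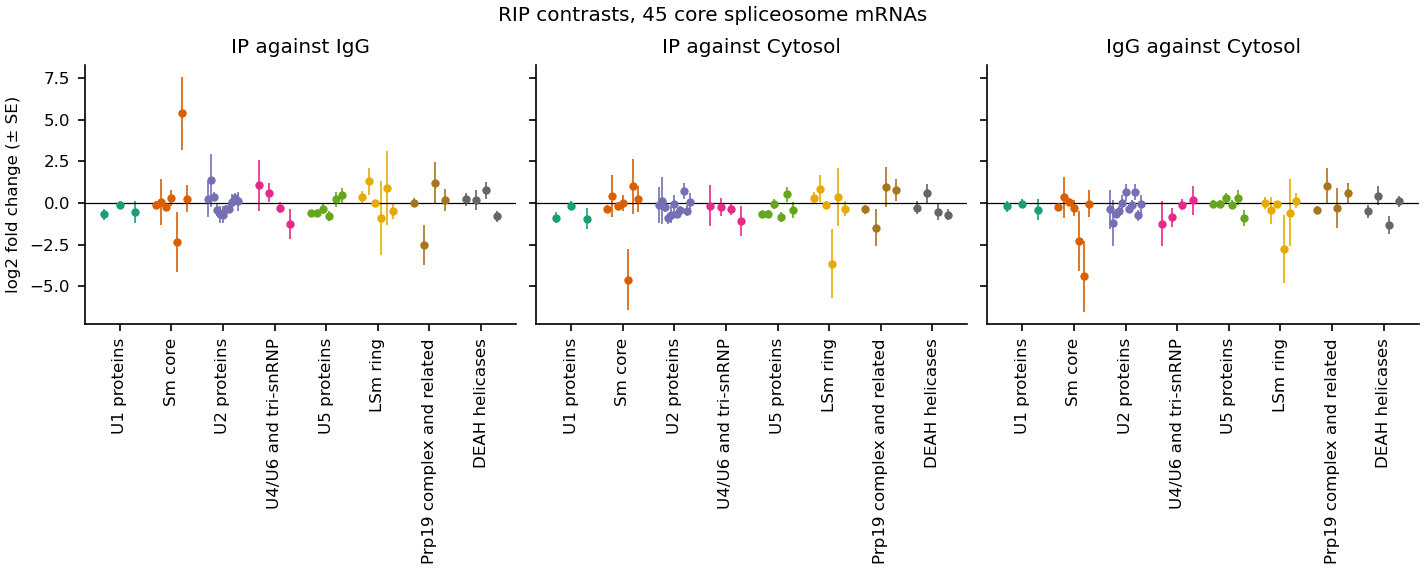
RIP-seq log2 fold changes (± SE, edgeR, 3 lines) of the 45 core spliceosome mRNAs for IP against IgG, IP against Cytosol and IgG against Cytosol, grouped and coloured by role. Most points lie within the spread around 0, and the widest bars (SE up to 2.22) belong to LSM5, LSM6, SNRPF and SNRPE, each listed at 0 in at least 1 library.

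The polysome gradients of the same cells separate mRNAs by the number of ribosomes they carry. The tested comparison set the 8-10 fraction against monosomes over the 3 lines. Of the 45 spliceosome mRNAs 30 were higher in the 8-10 fraction and 0 were lower, whereas 28.3% of the 15945 genes tested were higher and 21.6% lower (edgeR's quasi-likelihood test, adjusted p under 0.05). At an unadjusted p under 0.05 edgeR gave 32 of the 45 higher and 0 lower, beside 9056 of the 15945 genes in either direction. DESeq2 called 30 of the 45 higher and 2 lower. The median log2 fold change was 1.12 for the 45 and 0.08 for all genes. The median over all genes was higher where counts were high. Among the 9501 genes that reached 500 counts in every gradient, 39.9% were higher and 19.7% lower with a median of 0.52, and of the 42 spliceosome mRNAs at that depth 28 were higher and 0 lower with a median of 1.18. A total of 32 of the 45 were higher in 3 of 3 lines, 9 in 2, 1 in 1 and 3 in 0. Each p-value rests on the spread left in all 24 polysome libraries after fraction and line were fitted. The 3 lines also differ in genotype.

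All 3 U1 mRNAs had positive fold changes, and 2 rose past the threshold. SNRPC, a zinc finger protein that helps U1 to hold the 5' splice site, had 112, 74.9 and 97.2 CPM in the 8-10 fraction of WT, S34F and FS and 32.6, 21.7 and 20.7 CPM in monosomes. The groups did not overlap, and the log2 fold change was 2.13 ± 0.42 (SE, adjusted p = 0.000309). SNRNP70 had 57.1, 54.8 and 58.6 CPM against 19.9, 27.1 and 17.5 CPM, again without overlap (1.58 ± 0.33, adjusted p = 0.000542). SNRPA had 249, 129 and 174 CPM against 161, 134 and 76.2 CPM, so that the S34F line showed no excess (0.81 ± 0.34, adjusted p = 0.0501).

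Of the 7 Sm mRNAs 5 rose. The largest fold change was that of SNRPB, the subunit with a proline-rich tail, at 523, 319 and 208 CPM in the 8-10 fraction and 162, 93.6 and 46.3 CPM in monosomes. It was 2.06 ± 0.38 (adjusted p = 0.000212), and WT had the highest and FS the lowest level in both fractions. The smallest was that of SNRPD1, at 14.7, 30.3 and 15.5 CPM against 14.4, 10.8 and 14.3 CPM, where the S34F line accounted for most of the difference (0.62 ± 0.43, adjusted p = 0.225). SNRPD2, SNRPD3, SNRPE and SNRPG were the other Sm mRNAs that rose.

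The 11 U2 mRNAs spanned the whole range of the 45, with 7 that rose. SNRPB2, which binds a U2 stem-loop together with SNRPA1, had 24.02, 40.4 and 21.8 CPM in the 8-10 fraction and 11.9, 2.42 and 5.84 CPM in monosomes (2.405 ± 0.44, adjusted p = 0.000189). Its partner SNRPA1 had 22.4, 38.1 and 33.99 CPM against 6.45, 6.88 and 8.58 CPM (2.24 ± 0.33, adjusted p = 2.89e-05). Both pairs of groups were separate, with the highest 8-10 value in the S34F line. At the other end SF3A2, a subunit of the SF3A trimer, had 55.9, 45.7 and 55.2 CPM in the 8-10 fraction and 96.6, 151 and 70.8 CPM in monosomes. Every monosome value was above every 8-10 value, yet the test was not passed (-0.72 ± 0.37, adjusted p = 0.11). SF3B3 had 148, 229 and 212 CPM against 241, 262 and 383 CPM, also lower in the 8-10 fraction of each line (-0.45 ± 0.24, adjusted p = 0.121). SF3A2 passed as lower with DESeq2 (-0.84), with RLE size factors (-0.84), with the 2 groups alone in the fit (-0.89) and for fractions 6 to 8-10 against monosomes to 3 ribosomes (-0.79). SF3B3 passed as lower with DESeq2 (-0.53) and in that wider comparison of fractions (-0.51). SF3B1 had 54.1, 242 and 79.3 CPM against 51.7, 106 and 79.9 CPM, a difference carried by the S34F line (0.70 ± 0.43, adjusted p = 0.173).

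Of the 4 U4/U6 and tri-snRNP mRNAs 3 rose. PRPF31, which holds U4 to the tri-snRNP, had 50.5, 69.0 and 80.0 CPM in the 8-10 fraction and 16.8, 20.5 and 18.3 CPM in monosomes (1.98 ± 0.33, adjusted p = 8.22e-05). PRPF3 had 11.8, 21.6 and 12.9 CPM against 17.0, 18.7 and 21.7 CPM, overlapping groups (-0.18 ± 0.35, adjusted p = 0.679). Of the 6 U5 mRNAs 5 rose. DDX23, the helicase that releases U1 from the 5' splice site, had 48.5, 66.5 and 63.9 CPM against 15.0, 20.5 and 16.3 CPM (1.89 ± 0.32, adjusted p = 9.48e-05). PRPF8 had 221, 383 and 247 CPM against 97.3, 126 and 143 CPM (1.35 ± 0.31, adjusted p = 0.00118). PRPF6 had 59.9, 80.4 and 70.8 CPM against 33.8, 72.3 and 53.2 CPM, which overlapped (0.61 ± 0.31, adjusted p = 0.101). The PRPF8 call was lost when fractions 6 to 8-10 were set against monosomes to 3 ribosomes, at 0.40.

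The LSm ring had the fewest calls, 2 of 6, with a median of 0.43. LSM4, a ring subunit with a long arginine- and glycine-rich tail, had 342, 191 and 190.0 CPM in the 8-10 fraction and 102, 79.1 and 61.7 CPM in monosomes (1.76 ± 0.40, adjusted p = 0.00114). LSM2 had 61.3, 36.6 and 27.4 CPM against 67.6, 49.7 and 30.1 CPM, slightly lower in each line but with overlapping ranges (-0.05 ± 0.36, adjusted p = 0.91). The other called LSm mRNA was LSM3, at 11.9, 31.9 and 15.3 CPM against 9.24, 4.44 and 6.11 CPM (1.39 ± 0.58, adjusted p = 0.0478). For fractions 6 to 8-10 against monosomes to 3 ribosomes LSM2 (0.88) and LSM6 also passed as higher, which gave 4 of 6.

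In the Prp19 group 3 of 4 rose. CRNKL1, a large repeat protein of the catalytic spliceosome, had 6.21, 33.96 and 14.5 CPM in the 8-10 fraction and 7.09, 5.45 and 5.64 CPM in monosomes (1.54 ± 0.42, adjusted p = 0.00404). The WT line was not higher, and without the S34F line the fold change was 0.82 and no longer passed. CDC5L had 11.3, 48.0 and 22.1 CPM against 12.2, 16.6 and 11.9 CPM (0.95 ± 0.34, adjusted p = 0.0251). Its WT line was not higher either, and its call was lost with DESeq2, without the S34F line and without the FS line. BUD31 had 10.6, 11.8 and 7.73 CPM against 14.1, 6.98 and 4.33 CPM (0.32 ± 0.38, adjusted p = 0.484). Of the DEAH helicases 3 of 4 rose. DHX38, the helicase that drives the second step of splicing, had 62.4, 53.6 and 65.2 CPM against 9.49, 21.9 and 13.8 CPM (2.23 ± 0.34, adjusted p = 4.41e-05). DHX8, which releases the spliced mRNA, had 22.5, 51.6 and 27.7 CPM against 14.7, 29.7 and 25.6 CPM (0.67 ± 0.30, adjusted p = 0.0659).

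**Figure D3:**
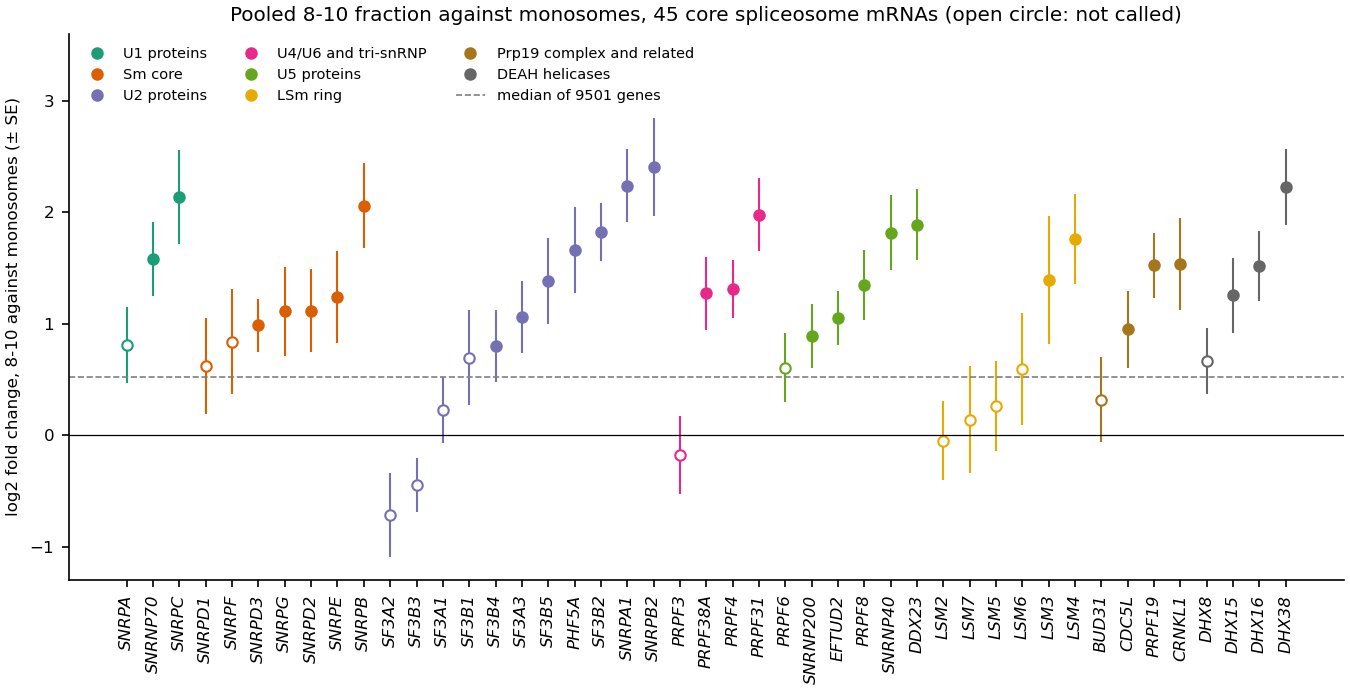
Log2 fold change (± SE, edgeR, 3 lines) of the 8-10 fraction against monosomes for each of the 45 core spliceosome mRNAs, coloured by role and ordered within it; filled circles passed an adjusted p of 0.05. The dashed line is the median of 9501 well-counted genes (0.52); all 30 filled circles lie above it.

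Other splicing genes from lists of the same pathway were tested in the same fit. Of 54 other spliceosome factors 33 rose and 0 fell (median 1.17), and of 24 hnRNP mRNAs, which encode abundant RNA-packaging proteins, 21 rose and 0 fell (median 1.5). Of 14 SR family mRNAs 6 rose and 1 fell (median 1.01), and of 11 snRNP assembly mRNAs 6 rose and 1 fell (median 0.96). Of 8 minor spliceosome mRNAs 2 rose and 0 fell (median 0.23). The difference of these lists from the 45 genes was not tested.

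Transcript length varied widely among the 45 genes and moved with these calls, so the counts were also set beside genes of the same length. Of the 9 spliceosome mRNAs up to 1000 bases 4 rose (44.4%), against 42.1% of 504 well-counted genes of that length. Of the 14 from 1001 to 2000 bases 11 rose (78.6%), against 53.1% of 1613, and of the 12 from 2001 to 4000 bases 9 rose (75%), against 42.2% of 3596. Of the 10 over 4000 bases 6 rose (60.0%), against 31.8% of 3787. The 45 include LSM6, CDC5L and CRNKL1, which did not reach 500 counts in every gradient. At the depth of the comparison genes 4 of 8 rose up to 1000 bases and 4 of 8 over 4000 bases, with no change in the other classes. The shortest class stayed near its background, and each of the longer classes lay above its own.

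The full gradients give the whole distribution of each mRNA. Each gene's CPM was summed over the 8 fractions of a line and expressed as the percentage in each fraction. The LSm group had medians of 20.3 ± 0.43% (SD, n = 3 lines) in the 5-ribosome fraction, 19.01 ± 7.41% in 6 and 18.95 ± 0.44% in 7, but 7.03 ± 0.43% in 4 and 6.77 ± 1.21% in 8-10. In the 6-ribosome fraction the lines stood apart, at 12.0% in WT, 26.8% in S34F and 18.2% in FS. The Sm group had 14.7 ± 1.38%, 17.7 ± 8.07% and 19.1 ± 1.03% in fractions 5, 6 and 7, and 12.1 ± 2.87% in 8-10. All genes up to 1000 bases had 16.2 ± 1.62%, 15.1 ± 4.38% and 16.6 ± 1.38% in the same 3 fractions and 8.05 ± 1.66% in 8-10, and they too were highest in the 6-ribosome fraction of S34F (19.6%, against 10.8% in WT and 14.9% in FS). Not all ring mRNAs are short: LSM4 has 1825 bases and LSM5 3265, and of the Sm group SNRPB has 1153, SNRPE 1618, SNRPD1 1628 and SNRPD3 3522. SNRPB (36.4%) and SNRPD3 (22.1%) had their highest share in the 8-10 fraction in all 3 lines, unlike the median of their group.

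The other groups had larger shares in the 8-10 fraction. The Prp19 group had 23.5 ± 8.78%, the U4/U6 group 22.3 ± 2.76%, the U5 group 21.5 ± 5.01%, U1 20.8 ± 2.59%, the DEAH helicases 20.7 ± 3.45% and U2 16.2 ± 1.96%. All 45 had 17.6 ± 3.01%, and the 9501 genes with 500 counts in each gradient had 13.0 ± 0.74%. The U5 and helicase mRNAs are not all long. Over 4000 bases the 10 spliceosome mRNAs had 20.3 ± 5.78%, against 13.6 ± 2.84% for the well-counted genes of that length. The 8 of these mRNAs with 500 counts in each gradient had 18.6 ± 5.49%, and in FS 13.5% against 11.7%. The 8-10 fraction was the highest of the 8 for 23 of the 45 mRNAs in WT, 26 in S34F and 21 in FS. It was the highest for 15 of the 45 in all 3 lines. The same count was not made over the well-counted genes. Their largest median share also lay in 8-10 in WT (13.0%) and S34F (13.7%), but not in FS (12.2%). These counts are therefore not read as a trait of the spliceosome mRNAs.

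**Figure D4:**
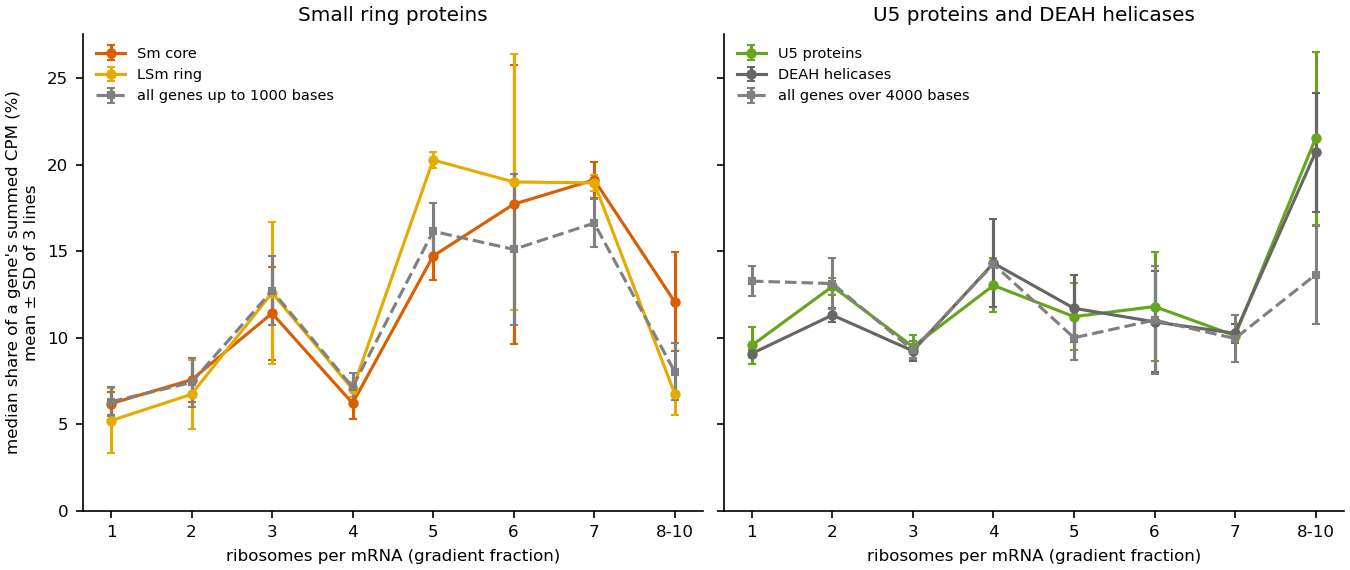
Share of a gene's summed CPM (%) in each gradient fraction, as group median, mean ± SD of 3 lines. Not all mRNAs of a group fall in the length class drawn beside it. Left, Sm and LSm ring mRNAs with all genes up to 1000 bases, all highest in fractions 5 to 7; right, U5 and DEAH helicase mRNAs with all genes over 4000 bases, where the 8-10 fraction held 21.5% and 20.7% for the spliceosome groups and 13.6% for the long genes.

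A position index, the CPM-weighted mean ribosome number over the 8 fractions with 9 for the pooled fraction, was computed for the 42 mRNAs with at least 500 counts in each gradient (LSM6, CDC5L and CRNKL1 had fewer). It is a relative measure, since CPM removes the RNA amount of a fraction. The median index of the 42 was 5.21 and that of all 9501 genes 4.87, and 30 of the 42 lay above the latter. SNRPB2 had the highest index, at 5.51 in WT, 7.33 in S34F and 5.83 in FS (6.22 ± 0.97, SD, n = 3 lines), above 99.9% of all genes. SNRPB followed at 5.82, 5.78 and 6.18 (5.93 ± 0.22, above 99.1%). SF3A2 had the lowest, at 4.24, 3.69 and 4.00 (3.98 ± 0.27, above 14.0%), and SF3B3 was next at 4.02, 4.28 and 4.18 (4.16 ± 0.13, above 18.5%). The SNRPB2 lines spread over 1.82, of which the S34F line made up most, whereas SF3B3 stayed within 0.27. Across the 42 mRNAs index and transcript length had a Spearman rho of -0.386, and across 9500 genes -0.262, as descriptions across genes.

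Between lines there was 1 gradient and 1 Cytosol library per line, so no difference between lines has a replicate check and none was tested. S34F and FS were each compared with the same WT gradient. The mean CPM over the 8 fractions weighs every fraction alike, whatever its RNA amount, and so is a relative measure. Its folds and those of the separate Cytosol libraries are therefore not on one scale. On the mean CPM over the 8 fractions, 12 of the 42 mRNAs were at least 1.5-fold higher in S34F than in WT and 1 was at least 1.5-fold lower, beside 10.7% and 10.3% of 9501 genes. For FS 12 were higher and 4 lower, beside 28.1% and 14.6%. The share for FS was thus near its background, and the median fold of the 42 was 1.19 for S34F and 1.20 for FS against 0.966 and 1.06 for all genes. With TMM-scaled CPM the FS numbers were 8 higher and 7 lower and the S34F numbers 14 and 1. Long genes in general were higher in FS, with a median FS/WT fold of 1.35 over 4000 bases and 0.796 up to 1000 bases.

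In S34F the higher mRNAs included several ring proteins. LSM3 had a polysomal mean of 20.1 CPM in WT, 42.5 in S34F and 34.2 in FS, and Cytosol values of 10.8, 11.6 and 16.5 CPM. Its S34F/WT fold was 2.12, with S34F above WT in 7 of 8 fractions, and 1.08 in Cytosol. SNRPF had 10.1, 20.6 and 13.3 CPM on polysomes and 2.83, 1.35 and 2.55 CPM in Cytosol (S34F/WT 2.04, 7 of 8 fractions, Cytosol 0.478). The polysomal and cytosolic differences of SNRPF went in opposite directions. LSM7 (1.89-fold, 7 of 8 fractions) and SNRPE (1.87-fold, 7 of 8 fractions) had Cytosol folds of 1.19 and 0.676. Over the 12 higher mRNAs the Cytosol fold ran from 0.478 to 1.45 with a median of 1.00, and 0 of them reached 1.5-fold higher there.

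A total of 6 mRNAs, SNRPE, SF3A3, SF3B1, SNRNP200, LSM3 and DHX15, were at least 1.5-fold higher in both S34F and FS, which share the WT gradient as their reference. SF3B1 had 51.7, 51.2, 28.6, 28.1, 42.02, 29.4, 16.4 and 54.1 CPM from monosomes to 8-10 in WT. In S34F it had 106, 81.5, 32.9, 62.8, 29.8, 29.99, 31.3 and 242 CPM. In FS it had 79.9, 93.0, 62.7, 178, 154, 74.4, 49.9 and 79.3 CPM. The S34F excess over WT was largest in the 8-10 fraction and the FS excess in the 4-ribosome fraction. The mean of SF3B1 was 37.7 CPM in WT, 76.96 in S34F and 96.5 in FS (2.04-fold and 2.56-fold), while its Cytosol folds were 1.03 and 1.09. SF3A3 had 13.3, 24.1 and 37.2 CPM, with S34F and FS above WT in 8 of 8 fractions each (1.81-fold and 2.80-fold), and Cytosol values of 29.96, 36.5 and 58.3 CPM, also highest in FS. DHX15 had 32.9, 49.5 and 84.8 CPM (1.51-fold in 6 fractions and 2.58-fold in 8) and Cytosol values of 37.7, 25.2 and 37.4 CPM. SNRNP200 had 58.2, 105 and 130.4 CPM, folds of 1.80 and 2.24 on this mean, while its Cytosol values of 287, 274 and 288 CPM were close together. PRPF3, past the fold in FS only, had 10.8, 12.7 and 21.6 CPM, with an FS/WT fold of 2.00 and FS above WT in 8 of 8 fractions.

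SNRPB was the one mRNA of the 42 that was at least 1.5-fold lower in both lines, and here Cytosol moved with the polysomes. It had 162, 134, 152, 75.3, 148, 120.4, 248 and 523 CPM from monosomes to 8-10 in WT. The same fractions of S34F held 93.6, 81.7, 83.3, 73.7, 110.2, 133, 121 and 319 CPM, and those of FS 46.3, 41.0, 36.6, 29.2, 27.1, 27.9, 53.4 and 208 CPM. FS was below WT in 8 of 8 fractions and S34F in 7 of 8, at polysomal folds of 0.2999 and 0.650. Cytosol held 480.4, 246 and 189.8 CPM in WT, S34F and FS, folds of 0.512 and 0.395 against WT. The other mRNAs lower in FS were PHF5A (0.570-fold), SNRPA (0.634-fold) and SNRPC (0.650-fold), whose Cytosol folds of 1.29, 1.09 and 1.78 lay above 1.

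The position index shifted by at least 0.5 between S34F and WT for 8 mRNAs upward and 3 downward, beside 23.4% and 4.25% of all genes. The upward shifts were largest for SNRPB2 (1.82), DHX15 (1.05) and SF3B1 (0.99), and the downward ones were DHX38 (-0.74), SF3A2 (-0.55) and SNRPC (-0.54). For FS against WT 0 shifted in either direction, with a range of -0.42 to 0.38, beside 7.8% upward and 1.39% downward of all genes. The 8 of 42 upward in S34F are near the background, so nothing is read from that number.

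**Figure D5:**
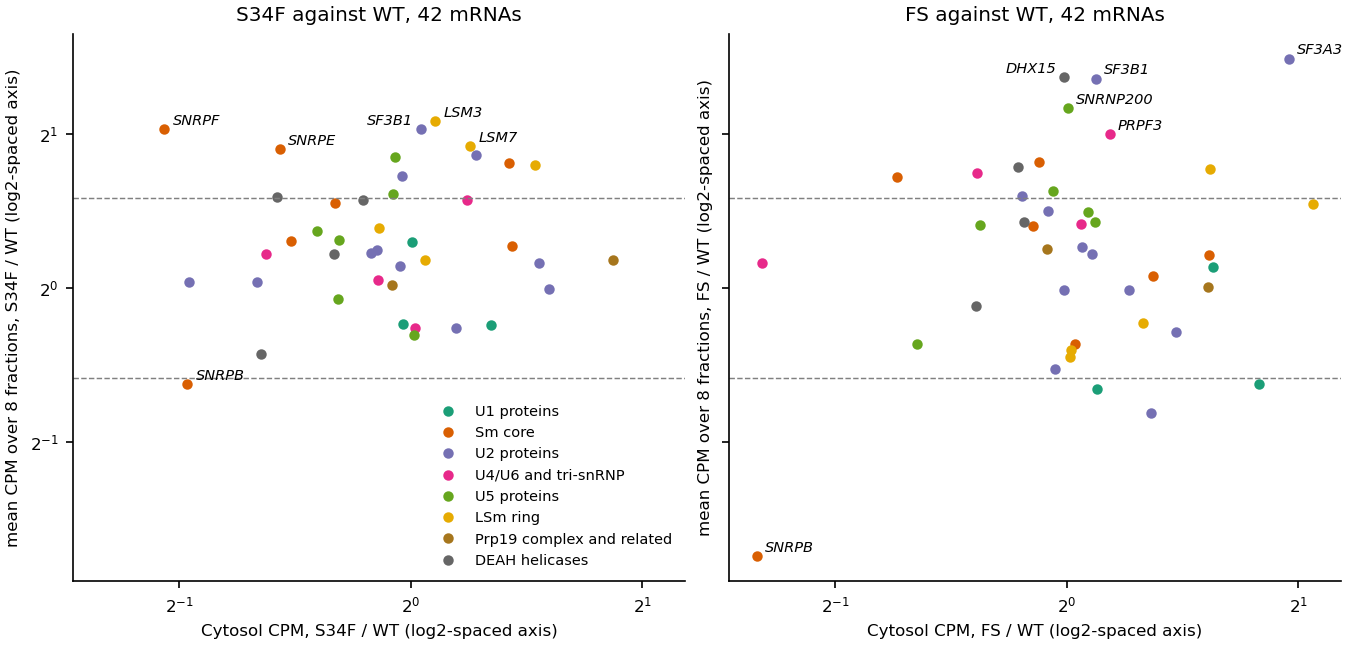
Fold of the mean CPM over 8 gradient fractions (vertical) against the fold in Cytosol (horizontal), both on log2-spaced axes, for 42 core spliceosome mRNAs, coloured by role, 1 library set per line. Left, S34F against WT; right, FS against WT; dashed lines mark 1.5-fold, and SNRPB is low on both axes in both panels while SF3B1 and SNRNP200 are high on the vertical axis alone.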

How the data were processed

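The authors deposited expected counts by gene symbol for the polysome and RIP libraries: 57.4% of polysome and 26.2% of RIP values were not whole. For each PAR-CLIP cluster the authors deposited read and conversion counts and a conversion fraction. TopHat is the only tool in the submitters' processing notes. The counter, annotation, strand use and genome build are not given in the sources used here. Per the labels, gradient RNA was purified with TRIzol and sequenced from NEBNext Ultra II libraries.

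Rows with date-like names (28, polysome) and repeated symbols (45 and 119) were dropped. Expected counts were rounded and fitted with edgeR 4.0.16 (limma 3.58.1, R 4.3.3): filterByExpr, TMM scaling, quasi-likelihood test, Benjamini-Hochberg adjusted p under 0.05, line as block, all libraries of an assay in 1 fit (15945 and 11612 genes). The pairing comes from the shared line: deviations from group means of same-line libraries had a median correlation of 0.346 (above 0 in 78 of 84 pairs) in the polysome data and 0.0643 (9 of 9) in RIP. CPM are counts scaled to one library total. A count of 0 allows 3 counts, 0.224 to 1.23 CPM (polysome) and 0.101 to 1.16 CPM (RIP), counting error only. Intervals of shares are exact Clopper-Pearson at 95%. Transcript lengths are those of the deposited RIP tables.

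Members and lists were chosen with earlier results of these data known. Named were the highest and lowest fold change per role, SF3B1, PRPF8 and SNRNP70, and the 6 largest line differences per line. Alternatives were other scalings, filters, thresholds and fits without the block, DESeq2 1.42.0, and each line left out.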

Additional observations from a re-analysis of the deposited data

How the results depend on the processing

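The number of spliceosome mRNAs higher in the 8-10 fraction, 30 of 45, was 30 with DESeq2 or RLE size factors, 33 without the filter on low counts, 31 without genes that have an isolated zero, 28 with the 2 groups alone in the fit and 27 for fractions 6 to 8-10 against 1 to 3. In that last comparison 22 of the 30 passed again, 8 did not (SF3B4, PRPF4, PRPF8, SNRNP200, EFTUD2, CDC5L, CRNKL1 and DHX15), and SNRPA, SNRPD1, SNRPF, LSM2 and LSM6 were new as higher. The number ran from 24 to 27 when each line was left out. Without the replicate block for line, which pairs libraries of 1 gradient, 20 passed, all among the 30, and SNRPB (1.94) was among those lost. The number lower moved from 0 to 2 with DESeq2, 1 with RLE factors, 1 with the 2 groups alone and 2 for fractions 6 to 8-10 against 1 to 3. The median over all genes was -0.55 with DESeq2, which kept low-count genes, against 0.08. Log2 fold changes changed sign for CRNKL1 (-0.28), DHX8 (-0.068), SF3B1 (-0.12) and LSM2 (0.88) under fractions 6 to 8-10 against 1 to 3, for LSM2 (0.14) and PRPF3 (0.10) without the filter, and for LSM2 without the S34F line (0.10, with -0.20 to 0.10 over the lines left out); the cause was not tested. In RIP 0 members passed under every alternative. IgG against Cytosol changed sign for PRPF8 with DESeq2 (0.025) and RLE (0.024) and for SNRNP200 with DESeq2 (0.0062) and RLE (0.0044). Over the lines left out it ran from -0.34 to 0.26 for PRPF6, -0.24 to 0.26 for PRPF8 and -0.13 to 0.068 for SNRNP200.

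At 2-fold, 3 members were higher and 0 lower in S34F than in WT, and 4 higher and 1 lower in FS. With the median over fractions 2 were lower in S34F, and with TMM scaling 7 were lower in FS. The median index of the members was 5.00 and 5.37 with weights of 8 and 10 for the pooled fraction, 5.54 without the monosome fraction and 5.36 with TMM scaling, beside 4.71, 5.01, 5.34 and 5.04 for all genes, so the members stayed above all genes in each. With at least 10 reads and 3 conversion positions, 416 chromatin clusters remained with 27.2% at 3' splice junctions. The same limits left 66 WT cytoplasm clusters on 23 members, of which 59.1% were coding, and 62 in S34F cytoplasm. Differences between lines and between PAR-CLIP lists have no replicates, and RIP rests on 1 library per line and kind with a wide spread. The cause of these changes was not tested beyond the construction of each alternative.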
